A study of Mus musculus with 11 samples.

Results

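The 10 genes described here are autosomal relatives of X-linked housekeeping genes: Pgk2, Pdha2, Rpl10l, Rpl39l, Cetn1, Cstf2t, Rbmxl2, Gk2, Utp14b and Slc25a31. They were chosen by symbol, and all 10 have a row among the 20265 gene rows of autosomes, X and Y in the UMI table (UMIs, unique molecular identifiers, are short tags that mark original RNA molecules). The question was at which step of meiotic entry each copy comes on and when it peaks. Live cells positive for green fluorescent protein were sorted from the testes of 3 adult Dazl-GFP mice, a line in which the reporter follows Dazl, a germ cell gene, and single cells were profiled by SORT-Seq, which counts the 3' ends of polyadenylated RNA. Mouse 1 gave 8 libraries made by CEL-Seq1, mouse 2 gave 1 library made by CEL-Seq2, and mouse 3 gave 2 CEL-Seq2 libraries, of which 1 was sorted by gate and 1 by index sorting, as were all libraries of mice 1 and 2. The protocol and the mouse cannot be told apart for mouse 1, the labels name no treatment and no genotype besides the reporter that all 3 mice carry, and the stages compared come from within each mouse.

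In male meiosis the X and Y chromosomes are silenced as the autosomes pair, and X-linked genes for energy metabolism, translation and RNA processing stop giving RNA in pachytene spermatocytes. Many such genes have a copy on an autosome that arose when the spliced messenger RNA of the X-linked gene was copied back into the genome, so that the copy usually lacks introns in its coding sequence. These copies are used mainly in the testis, and loss of several of them in mice is known to impair spermatogenesis.

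In the GENCODE annotation of GRCm38 (the mm10 build), 9 of the 10 members had their coding sequence in 1 exon, against 3 to 20 coding exons in the X-linked relatives. Slc25a31 had 6 coding exons and its relative Slc25a5 had 4, so the name retrocopy is not borne out by its gene structure. Pgk2 lies at chr17:40207015-40208640 on the minus strand, Pdha2 at chr3:141210004-141212355 (minus), Rpl10l at chr12:66283379-66284401 (minus) and Rpl39l at chr16:10170226-10174911 (plus). Cstf2t lies at chr19:31082837-31087069 (plus), inside the body of Prkg1 on the opposite strand. Rbmxl2 lies at chr7:107209445-107210916 (plus), Gk2 at chr5:97455142-97457021 (minus, overlapping 4930467D21Rik on the opposite strand) and Slc25a31 at chr3:40708855-40726096 (plus). Utp14b, at chr1:78658038-78671512 (plus), lies within Acsl3 on the same strand, so its counts can hold RNA of that gene. The strand setting of the authors' counting is not given in the sources used here.

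The encoded proteins shared from 68.3% (Utp14b with Utp14a) to 98.6% (Rpl10l with Rpl10) of their aligned residues with the X-linked relative. The closest pairs are the ribosomal proteins, and their coding sequences show how far the RNA of each pair can be told apart, with capitals at the bases that differ within the pair. The whole coding sequence of Rpl39l, 153 bases without the stop codon, differed from that of Rpl39 at 23 positions, and the last 150 of the 642 coding bases of Rpl10l differed from those of Rpl10 at 18 positions, of 98 over the whole coding sequence.
Rpl39l: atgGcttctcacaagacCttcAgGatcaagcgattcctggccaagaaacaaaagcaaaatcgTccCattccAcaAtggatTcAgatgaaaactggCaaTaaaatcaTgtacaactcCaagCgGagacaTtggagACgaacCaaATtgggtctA
Rpl39: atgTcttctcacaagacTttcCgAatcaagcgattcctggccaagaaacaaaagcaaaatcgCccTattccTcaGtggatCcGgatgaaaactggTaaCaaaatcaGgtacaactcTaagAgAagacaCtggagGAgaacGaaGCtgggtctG
Rpl10l (coding bases 493 to 642): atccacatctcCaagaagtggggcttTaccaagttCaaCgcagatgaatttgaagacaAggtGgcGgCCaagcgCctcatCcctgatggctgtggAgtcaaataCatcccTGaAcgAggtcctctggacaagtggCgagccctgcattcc
Rpl10 (coding bases 493 to 642): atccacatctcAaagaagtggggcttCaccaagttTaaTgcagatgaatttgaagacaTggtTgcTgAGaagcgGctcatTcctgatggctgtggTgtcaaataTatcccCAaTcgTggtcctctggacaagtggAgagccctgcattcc
Over the last 500 bases of the transcripts, where 3' counting takes its reads, no member shared a run of 50 bases with its X-linked relative. Rpl10l shared 30 of its 451 such runs with the pseudogene model Gm14460, and Rbmxl2 shared 2 with Lims2, so a small part of their reads could be split.

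Of 1920 wells, 1448 held at least 1000 UMIs and were kept as cells, with median UMIs of 16275 in mouse 1, 9830 in mouse 2 and 14132.5 in mouse 3. Clustering on odd-numbered autosomes, without any member or relative, placed 1224 of these cells in 11 stages, each with cells of all 3 mice (13 to 83 cells per mouse and stage). Stage 1 was undifferentiated spermatogonia-like (led by Ret, Egr4 and Sall4), and stage 2 was differentiating spermatogonia-like (Dnmt3b and Crabp1). Stage 3 had the markers of the same class without any among its leading genes. Stage 4 was preleptotene-like (Rec8) and stage 6 leptotene and zygotene-like (Dmc1 and Prdm9), these being the first substages of meiotic prophase. Stage 5 (led by Stra8), stage 7 (Zfy2 and Ccnb3), stage 8 (Gnas and H2afx), stage 9 (Aym1) and stage 10 (Ldhc and Slc47a2) are called by number. Stages 7 and 8 had the markers of leptotene and zygotene cells and stage 10 those of pachytene cells, with none among their leading genes. Stage 11 was pachytene-like (Adam3 and Tcp10 genes). The summed level of 15 pachytene markers was 2799 to 4945 CPM at stage 7 and 8823 to 12233 CPM at stage 8 (CPM, the scale of all levels here, is UMIs per 1000000 even-autosome UMIs). The leptotene and zygotene markers summed to 19117 to 21058 CPM at stage 7 and 15467.5 to 17276 CPM at stage 8. They were above the pachytene sum at both stages. Dazl was counted at every stage, at 556 to 8379 CPM. Markers of Sertoli cells, the somatic cells of the tubule, summed to 632 to 1794 CPM at stage 5 and to at most 535 CPM at every other stage, with Amh at 0 at stage 5. Their part in the stage 5 values was not tested. Leydig, myoid, macrophage and endothelial lists each summed to at most 64.3 CPM at any stage.

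Most of the copies came on by stages 7 and 8 as a share of RNA. Against stage 1, edgeR's quasi-likelihood test across 11640 genes called 1, 1 and 0 of the 10 members higher at stages 2, 3 and 4, where 13.2%, 18.3% and 17.8% of all genes tested were called higher. At stages 5 and 6 it called 3 members each, beside 22.4% and 21.6% of genes. The count was 5 at stage 7 (27.8% of genes) and 8 at stages 8, 9, 10 and 11, where 30.4%, 34.4%, 35.6% and 36.8% of genes were called higher. At stage 8 these were all members but Pgk2 and Slc25a31, and at stages 9, 10 and 11 all members but Utp14b and Slc25a31. The median fitted log2 change of the members was 0.54 at stage 7 and 1.64 at stage 8, against -0.08 and -0.17 over all genes tested. In the step from stage 7 to stage 8 alone, 8 of 10 members, all but Pgk2 and Utp14b, were called higher (18.7% of genes). Before that window some members were lower than in spermatogonia: 4 of 10 (Rpl10l, Rpl39l, Cstf2t and Slc25a31) were called lower at stage 3 than at stage 1, as were 21.6% of genes. The calls at stages 5 to 7 depended on mouse 3: without it the counts were 0, 0 and 2. The call at stage 2 (Rbmxl2) was not made without mouse 1 or without mouse 3, and that at stage 3 (Utp14b) not without mouse 2 or without mouse 3. All calls are of shares of RNA, and several turned direction per spike-in. Of the members called at stage 7, Rpl10l, Cstf2t and Rbmxl2 were lower per spike-in in all 3 mice, Utp14b was higher in 1 of 3 and Pdha2 in 3 of 3. Of those called at stages 5 and 6, Cetn1 (stage 5), Pdha2 and Gk2 (stage 6) were lower per spike-in than at stage 1 in all 3 mice. At stage 8 the 8 members called were higher per spike-in in 3 of 3 mice. Without the gate-sorted library of mouse 3 the counts at stages 3 and 5 were 0 and 1.

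**Figure D1:**
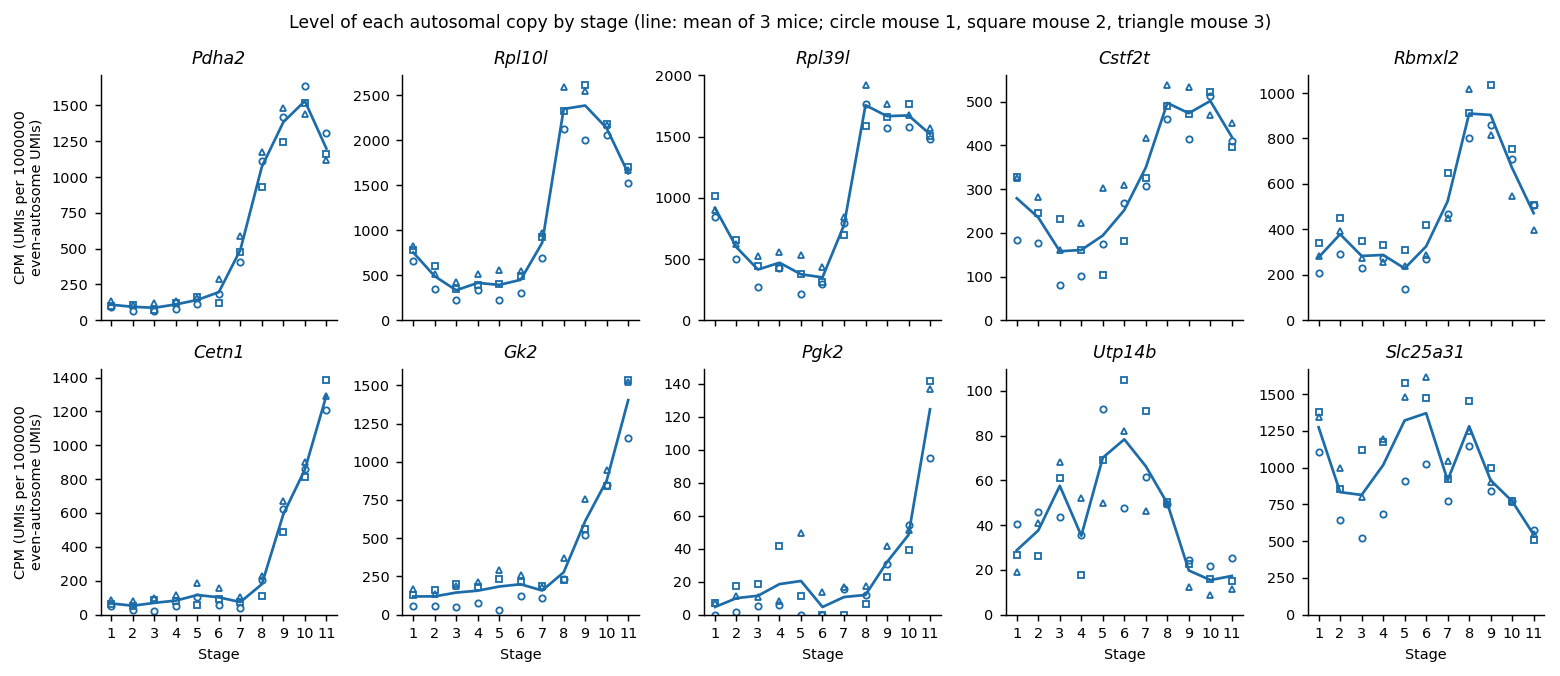
Level of each of the 10 genes (vertical axis, CPM, own scale per gene) at stages 1 to 11 (horizontal axis); the line is the mean of 3 mice and the points are the mice. Pdha2, Rpl10l, Rpl39l, Cstf2t and Rbmxl2 pass 50% of their highest level by stage 8 and are highest at stages 8 to 10, Cetn1, Gk2 and Pgk2 climb to stage 11, and Utp14b and Slc25a31 are highest between stages 5 and 8.

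Pdha2 encodes the testis form of the E1 alpha subunit of pyruvate dehydrogenase, which feeds pyruvate into the citric acid cycle. Its level was 92.8, 101 and 132 CPM at stage 1 in mice 1, 2 and 3, and 65.3 to 161 CPM over stages 2 to 5. It was 182, 120.1 and 288 CPM at stage 6, where mouse 2 still overlapped the earlier stages and the other mice lay above them. At stage 7 it was 405, 479 and 591 CPM, and at stage 8 1114, 930.1 and 1171 CPM, above every earlier value in all 3 mice. It reached 1637, 1515 and 1440 CPM at stage 10 and was 1311, 1164 and 1121 CPM at stage 11. By the test it was called higher than at stage 1 from stage 6 on (log2 change 0.96 ± 0.21 SE, adjusted p = 1.0e-04). Per spike-in, stage 6 was below stage 1 in 3 of 3 mice (log2 change -0.99 ± 0.75, SD, n = 3), and stage 7 was the first of the called stages above it. The steps from 6 to 7 (1.35 ± 0.18, adjusted p = 1.4e-08) and from 7 to 8 (1.19 ± 0.13, adjusted p = 8.6e-11) were both called, and at its peak the change from stage 1 was 4.14 ± 0.15.

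Pgk2, the testis phosphoglycerate kinase of glycolysis, was called without a break from stage 9 on, after Cetn1 and Gk2 at stage 8, but this order depended on how the cells were divided and on the threshold. In 12 bins along pseudotime all 3 genes were called without a break from bin 9 on (adjusted p = 0.0027 for Pgk2, edgeR). At 25% of the highest level the mean onset of Pgk2 was stage 6 and that of Gk2 stage 9. The UMIs of Pgk2 over all 3 mice numbered 4 at stage 1 and at most 12 at each of stages 1 to 7, and its level at stage 8 was 11.98, 6.28 and 17.5 CPM. It was 30.9, 22.7 and 41.9 CPM at stage 9, 54.5, 39.3 and 51.2 CPM at stage 10 and 94.9, 142 and 137 CPM at stage 11, so that in each mouse the last stage was the highest. The test called it higher than at stage 1 from stage 9 on (3.21 ± 0.66, adjusted p = 2.4e-05) and called the last step, from stage 10 to stage 11, as well (1.39 ± 0.3, adjusted p = 8.7e-04). In mouse 3 the gate-sorted library was highest at stage 11 and the index-sorted library at stage 5, and without the gate-sorted library the mean onset at 50% of the highest level moved from 10.7 to 8.67 and the mean peak from 11 to 9. A call at stage 5 (2.47 ± 0.93, adjusted p = 0.024) rested on 10 UMIs and on mouse 3, with 0, 11.5 and 49.7 CPM in mice 1, 2 and 3. With so few UMIs, an onset below these levels was not detectable at this depth.

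Gk2 encodes a testis glycerol kinase. It stayed at 27.6 to 293 CPM over stages 1 to 7 and was 235, 226 and 367 CPM at stage 8, 518, 562 and 755 CPM at stage 9, 849, 840.1 and 943 CPM at stage 10 and 1157, 1533 and 1520 CPM at stage 11. At stage 8 mice 1 and 2 still overlapped earlier stages, and within each mouse the level was higher at each step from stage 8 to stage 11. It was called higher than at stage 1 from stage 8 on (1.51 ± 0.24, adjusted p = 2.1e-06), ending at 4.03 ± 0.22 (adjusted p = 3.5e-17), and an isolated call at stage 6 (0.8 ± 0.31, adjusted p = 0.03) was followed by none at stage 7.

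Slc25a31 encodes the testis ADP/ATP carrier of the mitochondrial membrane, and it showed no onset by the test against stage 1. Its level was already 1105, 1375 and 1344 CPM at stage 1 and 522, 1122 and 798 CPM at stage 3. It was 1023, 1472 and 1617 CPM at stage 6, 773, 924 and 1043 CPM at stage 7 and 1146, 1452 and 1247 CPM at stage 8, with its highest stage at 8, 5 and 6 in mice 1, 2 and 3. At stage 11 it was 573, 509 and 551 CPM, below stage 1 in every mouse. The test called it higher than at stage 1 at no stage and lower at stages 2, 3, 4, 7, 10 and 11. At stage 11 (-0.82 ± 0.12, adjusted p = 1.5e-08) it was the only member among the 39.3% of genes called lower. Of the steps between neighbouring stages, those from 4 to 5 and from 7 to 8 were called higher. The steps from 1 to 2, 6 to 7, 8 to 9 and 10 to 11 were called lower. Per spike-in, stage 11 was above stage 1 in 3 of 3 mice.

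Among the members of the translation machinery, Rpl10l and Rpl39l, copies of ribosomal protein genes of the large subunit, followed nearly the same course. Rpl10l was 658, 778 and 828 CPM at stage 1, 226, 347 and 428 CPM at stage 3 and 221, 402 and 557 CPM at stage 5. It was 691, 924 and 970.5 CPM at stage 7 and 2123, 2332 and 2594 CPM at stage 8, with all mice above all earlier values at stage 8. The fall at stage 3 was called (-1.18 ± 0.13, adjusted p = 1.2e-10), as were the steps from 6 to 7 (1.06 ± 0.14, adjusted p = 2.2e-08) and from 7 to 8 (1.5 ± 0.12, adjusted p = 2.3e-15). Onset by the test was stage 7 (0.31 ± 0.12, adjusted p = 0.024), and by stage 11 the level was 1530, 1700 and 1670 CPM, below stage 8 in every mouse.

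Rpl39l was 841, 1013 and 898 CPM at stage 1, 211, 379 and 535 CPM at stage 5 and 296, 315 and 439 CPM at stage 6. It was 791, 696 and 842 CPM at stage 7, back within the range of stages 1 and 2, and 1763, 1584 and 1920 CPM at stage 8. The lowest fitted value was at stage 6 (-1.35 ± 0.16 against stage 1, adjusted p = 3.4e-10), onset by the test was stage 8 (1.12 ± 0.13, adjusted p = 7.5e-11), and from stage 8 to stage 11 no neighbouring step was called. Since spermatogonia already held 46.8% to 57.4% of each mouse's highest level, a threshold at 50% of the highest placed its onset at stage 1 in mouse 2 and at stage 8 in the others. Utp14b, a copy of a nucleolar gene that acts in making the small ribosomal subunit, had 22 to 73 UMIs per stage. It was 40.6, 26.8 and 18.9 CPM at stage 1, 91.9, 68.9 and 49.7 CPM at stage 5, 47.8, 105 and 82.2 CPM at stage 6, 49.4, 50.3 and 49.5 CPM at stage 8 and 24.2, 22.7 and 12.2 CPM at stage 9. All values of stages 5 to 8 lay above those of stage 1, and those of stage 9 overlapped them. It was called higher at stages 3 and 5 to 8 (up to 1.45 ± 0.47, adjusted p = 0.0079), and the fall from stage 8 to stage 9 was called (-1.33 ± 0.37, adjusted p = 0.0048), so that in CPM it declined while 8 other members were high. Per spike-in these calls had no common direction: stage 3 was above stage 1 in 2 of 3 mice (0.26 ± 0.94), stages 5, 6 and 7 in 1 of 3 (stage 6 at -0.33 ± 1.32) and stage 8 in 3 of 3 (0.84 ± 0.62).

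Cstf2t and Rbmxl2 belong to RNA processing: Cstf2t encodes the tau form of the cleavage stimulation factor subunit that acts in 3' end formation, and Rbmxl2 encodes hnRNP GT, a splicing regulator of germ cells. Cstf2t was 183, 329 and 325 CPM at stage 1, 81.6, 232 and 160.1 CPM at stage 3, 307, 325 and 416 CPM at stage 7 and 461, 490.2 and 539 CPM at stage 8. Its change from stage 1 to stage 11 was 1.05 ± 0.16 (adjusted p = 8.0e-08), with onset by the test at stage 7 (0.52 ± 0.18, adjusted p = 0.0093) after a called dip at stage 3 (-0.87 ± 0.2, adjusted p = 3.5e-04). Rbmxl2 was 206, 342 and 283 CPM at stage 1, 268, 420.4 and 288 CPM at stage 6, 469, 650.2 and 452 CPM at stage 7, 801, 911 and 1017 CPM at stage 8 and 508, 509 and 397 CPM at stage 11. It was called higher from stage 7 on (1.06 ± 0.14, adjusted p = 5.7e-09), besides a small called rise at stage 2 (0.49 ± 0.14, adjusted p = 0.0067). Its decline after the peak was called in the last step, from stage 10 to stage 11 (-0.42 ± 0.12, adjusted p = 0.015).

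Cetn1, on chromosome 18 and coding for a centrin of centrioles and the basal body of the sperm tail, was 49.3, 60.4 and 87.2 CPM at stage 1 and 21.8 to 188 CPM over stages 2 to 7. It was 204, 107 and 227 CPM at stage 8, 622, 487 and 670.2 CPM at stage 9, 858, 811 and 899 CPM at stage 10 and 1205, 1383 and 1292 CPM at stage 11. Mouse 2 at stage 8 still overlapped earlier stages, and from stage 9 on all mice lay above them. The steps from 7 to 8 (1.5 ± 0.26, adjusted p = 1.5e-05), 8 to 9 (1.7 ± 0.19, adjusted p = 5.4e-09), 9 to 10 (adjusted p = 0.037) and 10 to 11 (0.68 ± 0.16, adjusted p = 0.0034) were all called, and the change from stage 1 to stage 11 was 4.73 ± 0.23. A call at stage 5 (0.92 ± 0.34, adjusted p = 0.022) was not kept at stages 6 and 7.

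By the stage of the peak in CPM, the members fell into sets, formed here after their values were seen and given as a description. Pdha2, Rpl10l, Rpl39l, Cstf2t and Rbmxl2 were highest at stage 8, 9 or 10 in every mouse: at stage 8 they were at 61.4% to 100% of the highest level of the mouse (median 93.2%), and at stage 11 at 39.0% to 85.2%. Cetn1, Gk2 and Pgk2 rose on: at stage 8 they were at 4.42% to 24.2% of the highest level (median 14.8%), at stage 9 at 16.0% to 51.9%, and in all 3 mice their highest stage was stage 11. In CPM, Utp14b and Slc25a31 were highest between stages 5 and 8. The order differed per spike-in. On that scale Pdha2, Rpl10l, Rpl39l, Cstf2t and Rbmxl2 were each higher at stage 11 than at stage 8 in 3 of 3 mice. Their mean log2 changes ran from 0.79 ± 0.16 (Rbmxl2, SD, n = 3) to 1.91 ± 0.24 (Pdha2). Per spike-in, Slc25a31 was lower at stages 5, 6 and 7 than at stage 1 in 3 of 3 mice. It was higher at stage 11 than at stage 8 in 3 of 3 mice. Utp14b was higher at stage 11 than at stage 6 in 3 of 3 mice and than at stage 8 in 2 of 3. In CPM, onset at 50% of the highest level was stage 8 in every mouse for Pdha2 and Rpl10l. It was stage 7 or 8 for Rbmxl2, stage 9 or 10 for Cetn1, stage 10 for Gk2 and stage 10 or 11 for Pgk2. It varied between stages 1 and 8 for Rpl39l, 1 and 6 for Cstf2t and 3 and 5 for Utp14b, which were at a sizeable part of their highest level from the start, and was stage 1 for Slc25a31. For Pdha2 and Gk2 the first stage of unbroken calls came 2 stages before the 50% point. In the step from stage 8 to stage 9 the test called Pdha2, Cetn1, Gk2 and Pgk2 higher (15.6% of genes), and lower Utp14b and Slc25a31 (9.95% of genes). From stage 10 to stage 11 it called Cetn1, Gk2 and Pgk2 higher (5.77% of genes) and Rbmxl2 and Slc25a31 lower (2.81%). From stage 6 to stage 7 it called Pdha2, Rpl10l, Rpl39l, Cstf2t and Rbmxl2 higher (16.2% of genes), the same 5 members that were highest at stages 8 to 10. The sets were drawn from the same values, so these calls are not separate evidence for them.

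**Figure D2:**
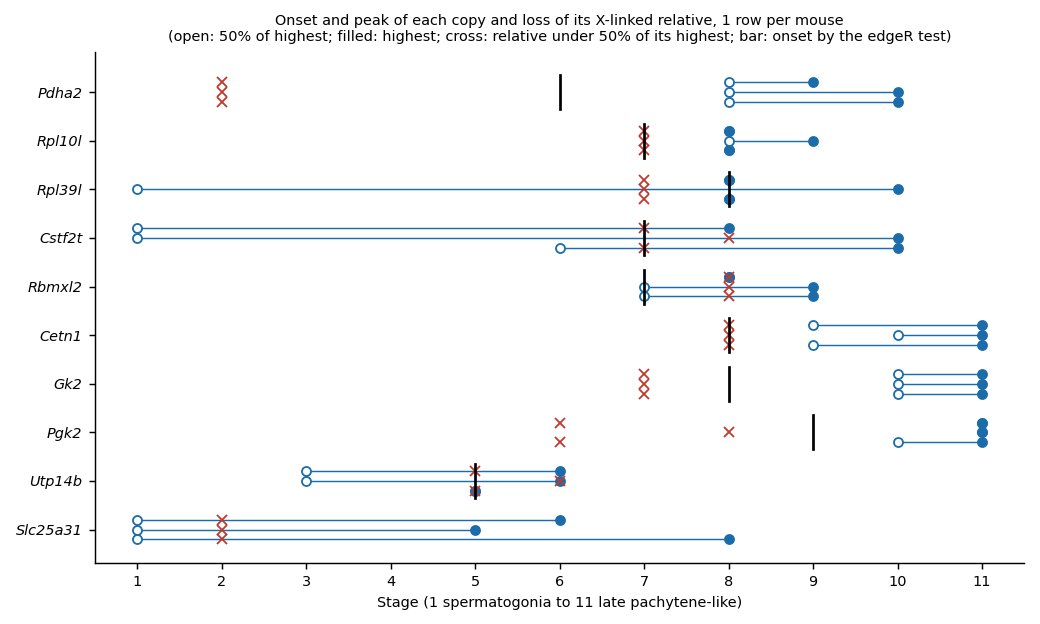
Stage (horizontal axis) at which each gene reached 50% of its highest level (open circle, hidden where it equals the peak) and its highest level (filled circle), with 1 row per mouse and mouse 1 at the bottom; crosses mark the stage from which the X-linked relative stayed under 50% of its highest level, and black bars the onset by the edgeR test. The filled circles of Cetn1, Gk2 and Pgk2 all sit at stage 11, and most crosses sit at stages 7 and 8.

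The X-linked relatives fell sharply in the step in which most copies rose. In the step from stage 7 to stage 8, all 10 relatives were called lower, with a median log2 change of -3.61 against -0.05 over all genes tested, of which 17.6% were called lower. Rpl10 was 571, 809.9 and 502 CPM at stage 7 and 55.4, 75.4 and 52.5 CPM at stage 8, and Cstf2 was 172, 291 and 215 and then 5.99, 6.28 and 5.83 CPM, so that neither pair of stages overlapped. Several had begun to fall before. Rpl10, Rpl39 and Gyk, the X-linked glycerol kinase gene (Gk in the annotation), were under 50% of their highest level from stage 7 on in all 3 mice, and Pgk1 from stage 6 in mice 1 and 3 and from stage 8 in mouse 2. Pdha1 and Slc25a5 were highest in stage 1 and already under 50% at stage 2. Utp14a was under 50% for good from stage 5 or 6, Cstf2 from stage 7 or 8, and Cetn2 and Rbmx from stage 8.

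In CPM, the gap between loss of the relative and onset of the copy, both at 50% of the highest level, therefore ran in both directions. It was -1 to 0 stages for Rbmxl2, whose onset did not come after the loss of Rbmx, and 1 stage in all 3 mice for Rpl10l. For Rpl39l it was 1 stage in mice 1 and 3 and -6 in mouse 2, for Cstf2t -7 to -1, for Utp14b -3 to 0 and for Slc25a31 -1. Cetn1 followed Cetn2 by 1 or 2 stages, Gk2 followed Gyk by 3 and Pgk2 followed Pgk1 by 3 to 5. Pdha2 reached 50% of its highest level 6 stages after Pdha1 had fallen. Between them, at stage 5, Pdha1 was 82.7, 11.5 and 49.7 CPM and Pdha2 110.3, 161 and 155 CPM, against 197, 188 and 177 CPM of Pdha1 at stage 1. The gaps depended on the threshold. At 25% they were -4 to 1 for Pgk2 and -7 in every mouse for Rpl10l, at 75% they were 3 to 8 for Cetn1 and 0 to 1 for Cstf2t, and Cetn1, Gk2 and Pdha2 did not come before the loss of the relative at any of the 3 thresholds. All these gaps are of shares of RNA, and loss of the relatives was not computed per spike-in. Mean Cetn2 per 1000 ERCC UMIs was 7.51 ± 5.33 (SD, n = 3) at stage 2 and 2.48 ± 1.21 at stage 3. Mean Rpl10 was 37.1 ± 24.2 at stage 2 and 12.4 ± 5.76 at stage 5. In CPM their losses came at stages 8 and 7, so loss stages and gaps can differ per spike-in. Per spike-in, Rpl39l, Cstf2t and Rbmxl2 reached 50% of their highest level at stage 8 or later in every mouse. The early onsets behind their negative gaps were thus not seen on that scale. No test of the gap was made, since an exact sign permutation over 3 mice cannot go below 0.25.

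As a share of the UMIs counted for the pair, the copy overtook its relative for good at stage 7 in all 3 mice for Rpl10l, Rpl39l and Cstf2t, and at stage 8 for Cetn1. For Pgk2 it was stage 8 in mice 1 and 3 and stage 9 in mouse 2, for Pdha2 stage 2 and for Utp14b stages 5 to 7. Gk2 was never behind Gyk. Its share was above 50% at every stage in mice 2 and 3. In mouse 1 it was 50% at stage 5 and above 50% at every other stage. The efficiency with which each gene's 3' end is counted is not known, so these shares describe counted molecules. The Rpl10l share was 41.8% ± 5.74 (SD, n = 3) at stage 1 and 18.99% ± 3.46 at stage 3. It then came to 57.99% ± 6.90 at stage 7 and 97.4% ± 0.575 in stage 8. The Rpl39l share went from 83.1% ± 5.60 at stage 1 down to 27.4% ± 8.69 at stage 5 and up to 96.96% ± 1.35 at stage 8. The Pgk2 share was 12.7% ± 11.7 at stage 7 and 76.7% ± 25.2 at stage 8, when the pair together was at its lowest: Pgk1 was 3.09 ± 3.14 CPM and Pgk2 11.9 ± 5.60 CPM, against 203 ± 43.6 CPM of Pgk1 at stage 4. Rbmxl2 and Slc25a31 held the larger share at every stage in every mouse. In single cells at full depth, pooled over the mice, 138 of 209 cells at stage 7 had UMIs of both Rpl10l and Rpl10. At stage 8, 67 of 112 had UMIs of Rpl10l alone and 45 of both. Later, both RNAs were found together in 70 of 113 cells (stage 9), 76 of 105 (stage 10) and 75 of 95 (stage 11). Depth differed too: the median cell of stage 7 held 7668 UMIs and that of stage 11 held 89393. Cells were not thinned for these counts of cells, so changes in them can reflect depth. For Pgk2, 97 of 112 cells at stage 8 had neither Pgk2 nor Pgk1, as had 75 of 95 at stage 6 and 160 of 209 at stage 7.

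**Figure D3:**
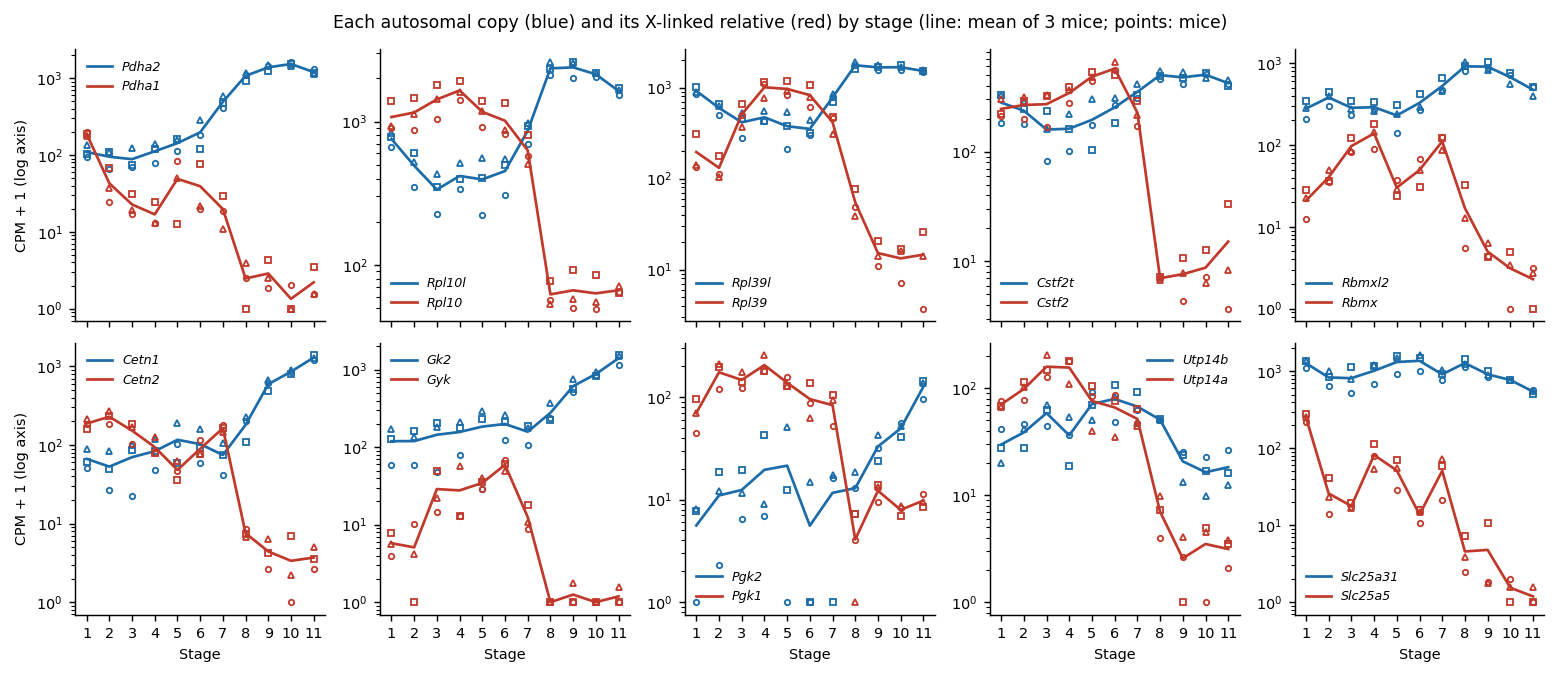
Each autosomal copy (blue) and its X-linked relative (red) by stage; the vertical log axis gives CPM plus 1, lines are means of 3 mice and points are mice. All 10 relatives drop between stages 7 and 8, and the lines of Pgk1 and Pgk2 are both low at stage 8.

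CPM is a share of RNA, and RNA content changed between the stages. Endogenous UMIs per UMI of the ERCC spike-ins, synthetic RNA added to the wells, were 36.7, 13.4 and 13.1 at stage 6 in mice 1, 2 and 3, 158, 41.3 and 36.4 at stage 8 and 427, 145 and 147 at stage 11. In every mouse the last stage was far above stage 6. Per spike-in, Pdha2 changed by 5.2 ± 0.17 (log2, SD, n = 3) and Cetn1 by 6.06 ± 0.07 from stage 1 to stage 11, up in 3 of 3 mice, as in CPM. Between stages 1 and 7 Rpl10l was lower per spike-in in 3 of 3 mice (-1.21 ± 0.03) although the fitted share was higher, Cstf2t (-1.03 ± 0.48) and Rbmxl2 (-0.46 ± 0.32) likewise, whereas Pdha2 was higher on both scales (0.79 ± 0.04 per spike-in). The direction after stage 8 also depended on the scale. Rbmxl2 was lower in CPM at stage 11 than at stage 8 and higher per spike-in in 3 of 3 mice (0.79 ± 0.16), as was Rpl10l (1.22 ± 0.24). Slc25a31, called lower at stage 11 than at stage 1 in CPM, was higher per spike-in in 3 of 3 mice (0.5 ± 0.42, from 0.05 to 0.87). Utp14b changed by 0.13 ± 0.3 per spike-in from stage 8 to stage 11, with 2 of 3 mice up. Scaled to ERCC, onset at 50% of the highest level was stage 8 or 9 in every mouse for Pdha2, Rpl10l, Rpl39l, Cstf2t and Rbmxl2, and stage 10 or 11 for Cetn1, Gk2 and Pgk2. The mean peak stage of Rpl10l moved from 8.33 to 10.3 on this scale.

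**Figure D4:**
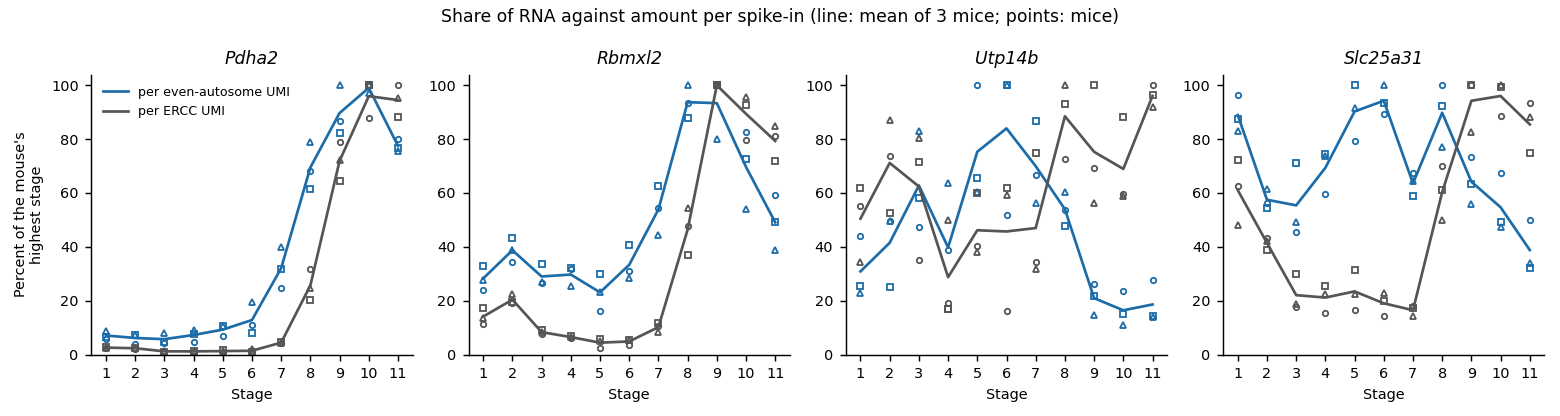
Level of 4 genes as a percent of the highest stage of each mouse, per even-autosome UMI (blue) and per ERCC spike-in UMI (grey), by stage; lines are means of 3 mice and points are mice. Pdha2 rises on both scales, and Slc25a31 falls after stage 8 on the first scale only.

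For Pdha2, Cetn1 and Gk2 the share of cells with a UMI rose along with the level over the stages given here. With each cell thinned to 2000 UMIs, which left out 18 of the 1224 staged cells, 15.1% ± 3.35 (SD, n = 3), 30.8% ± 6.38 and 68.4% ± 1.58 of cells had a Pdha2 UMI in stages 6, 7 and 8. Without thinning the shares were 44.2%, 65.9% and 100%. For Cetn1 the thinned share was 8.04% ± 3.92 at stage 7, 15.7% ± 9.92 and 39.2% ± 19.7 in the next stages and 61.6% ± 15.8 in the last. For Gk2 it was 10.95% ± 3.41 at stage 7 and 77.1% ± 3.33 at stage 11. Pgk2 was seen in 7.53% ± 7.02 of thinned cells and in 89.2% of cells at full depth at stage 11. At stage 9, where its mean level was 31.9 CPM, it was seen in 0% of thinned cells. The thinned share of Slc25a31 went from 66.0% ± 3.18 at stage 1 to 43.4% ± 9.65 at stage 11, and that of Utp14b from 7.50% ± 5.98 at stage 8 to 0.725% ± 1.26 at stage 11. Rpl10l was already in 55.9% ± 8.86 of thinned cells at stage 1 and in 19.8% ± 10.8 at stage 3.

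A finer division of the staged cells into 16 clusters, added after the stages were seen, split the onset window further. Clusters 8, 9 and 10 in this order held most cells of stage 7, with mean stage numbers of 6.47, 6.97 and 7. Pdha2 was 187 ± 78.8 CPM (SD, n = 3) in cluster 8, 419.7 ± 20.7 in cluster 9, 616 ± 87.4 in cluster 10 and 1013 ± 154 in cluster 11. Rpl10l was 428 ± 124, 775 ± 81.4, 1060 ± 187 and 1933 ± 342 CPM in the same clusters. Over these clusters Rpl10 was 897 ± 441, 809.6 ± 180.4, 456 ± 92.4 and 61.3 ± 10.5 CPM, and Cstf2 was 569 ± 144, 308 ± 105, 71.4 ± 42.4 and 10.8 ± 2.71 CPM. Cetn1 was still 119.9 ± 69.9 CPM in cluster 11 and 617 ± 119 CPM in cluster 12. In the last 2 clusters, both from stage 11, Pgk2 went from 74.2 ± 6.50 to 219 ± 70 CPM and Gk2 from 1151 ± 139 to 1895 ± 227 CPM, while Pdha2 was 1239 ± 60.9 and 1144 ± 188 CPM.

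Of 10 other autosomal copies of X-linked genes taken from a list, 8 passed the filter on low counts, and Ubl4b and G6pd2 were not tested. At stage 8, 5 of these 8 were called higher than at stage 1 (30.4% of all genes), and at stage 11 7 of 8 were called higher (36.8% of genes) and 1 lower (39.3%). Their onset at 50% of the highest level was stage 8 in all 3 mice for Cox7b2 (a cytochrome c oxidase subunit), Tktl2 (a transketolase relative) and Nxt1 (a factor of RNA export). It was stage 9 for Timm8a2 (a mitochondrial import factor), stage 9 or 10 for Fam50b and stage 10 for Prps1l1 (a phosphoribosyl pyrophosphate synthetase). Tktl2 and Nxt1 peaked at stage 8 in every mouse, and Timm8a2, Fam50b and Prps1l1 at stage 11, so that both time courses occurred outside the 10 members. Rraga showed no onset by the test and was the copy called lower. Rpl36al was at 50% of its highest level or above already at stage 1. Of the X-linked relatives of the 10 listed copies, 8 were tested. They included G6pdx, the relative of the untested G6pd2, but not Rragb, the relative of Rraga. All 8 were called lower at stage 11 than at stage 1, as were 39.3% of genes.

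Across the 11 stages, the mean levels on the log2(CPM + 1) scale of Cetn1 and Gk2 had a Pearson correlation of 0.99, those of Rpl10l and Rpl39l 0.97 and those of Rpl10l and Cstf2t 0.96. Pgk2 correlated at 0.86 with both Cetn1 and Gk2 and at 0.61 with Rpl10l, and Utp14b had negative values with all members but Slc25a31. These are descriptions over 11 stages that share the same libraries. Over all genes tested, the pattern most like Cetn1 was that of March10 (0.997) and the pattern most like Gk2 that of Atp8b3 (0.997). Hsf5 was most like Pdha2 (0.995), the germ cell helicase Ddx4 most like Rpl10l (0.984), Abhd14a most like Rpl39l (0.988) and Taf9 most like Cstf2t (0.983). The nearest were Prss56 for Pgk2 (0.980), Adgb for Rbmxl2 (0.962), Nfyc for Utp14b (0.965) and Psmd1 for Slc25a31 (0.914).

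Promoters were read from RefSeq for GRCm38.p6, which held 9 of the 10 members, without Cetn1. In the 250 bases upstream of the start, 4 sequence cores were searched on both strands: TGACGT (cyclic AMP response element core), CNGTTG (MYB core), GTTGCC (RFX motif core) and CACGTG (E box). The E box was found in 4 of 9 members (Utp14b, Slc25a31, Gk2 and Rbmxl2) and in 6% of 32851 promoters. The MYB core was found in 3 of 9 (Slc25a31, Gk2 and Cstf2t) and in 29.3% of promoters. The other 2 cores were found in none of the 9 and in 6.5% and 10.4% of promoters. A match is a description of letters and not a site. The sequences below are 120 bases on the strand of the gene, upstream of every exon annotated for it in GENCODE, with capitals at these cores. Slc25a31 is shown as a member that was highest midway in CPM and holds an E box. Pdha2 and Rpl10l are shown as members highest at stages 8 to 10 in CPM, and Gk2 and Pgk2 as members that rose to stage 11.
Slc25a31 (chr3:40708735-40708854, plus strand): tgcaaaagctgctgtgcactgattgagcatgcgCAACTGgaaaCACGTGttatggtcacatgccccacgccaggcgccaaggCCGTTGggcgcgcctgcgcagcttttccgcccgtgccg
Pdha2 (chr3:141212356-141212475, minus strand): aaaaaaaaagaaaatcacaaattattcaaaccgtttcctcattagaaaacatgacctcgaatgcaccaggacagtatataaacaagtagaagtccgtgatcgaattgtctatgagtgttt
Rpl10l (chr12:66284402-66284521, minus strand): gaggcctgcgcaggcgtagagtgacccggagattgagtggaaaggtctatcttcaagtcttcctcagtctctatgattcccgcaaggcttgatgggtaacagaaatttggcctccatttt
Gk2 (chr5:97457024-97457143, minus strand): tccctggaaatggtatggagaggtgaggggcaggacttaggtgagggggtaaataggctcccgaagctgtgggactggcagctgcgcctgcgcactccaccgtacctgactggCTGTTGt
Pgk2 (chr17:40208641-40208760, minus strand): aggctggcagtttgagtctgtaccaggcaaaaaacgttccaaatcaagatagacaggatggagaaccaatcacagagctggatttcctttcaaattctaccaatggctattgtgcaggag
The shown stretches of Pdha2, Rpl10l and Pgk2 held none of the 4 cores. Slc25a31 held an E box and a pair of MYB cores within this stretch, and the E box of Gk2 lies 160 bases before its start, outside it.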

How the data were processed

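The authors deposited whole-number counts of UMIs and of reads for each gene in each well, with a transcripts table of estimated counts (UMIs corrected for collisions, as read from the values). BWA 0.7.10 and the mm10 build are named in the submitters' processing notes; the annotation and the counter are not given in the sources used here. UMI counts were the main values. Estimated counts, rounded to whole numbers, and reads were alternatives. In mouse 1 the estimated-count columns stood in another order and were matched by profile (768 of 768 wells, lowest correlation 0.998), and the columns do not separate its 8 libraries.

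Wells with at least 1000 UMIs were kept (1448; totals of 16682671, 5866174 and 18032562 UMIs in mice 1, 2 and 3). From the odd-numbered autosomes, genes detected in 20 or more cells, leaving out members, relatives and other copies, gave 1500 variable genes. Cells were aligned across mice with Seurat 5.3.0 (15 dimensions), clustered with scanpy 1.11.5 (Leiden resolution 1) and ordered by diffusion pseudotime from the spermatogonia-like cluster. Of 15 clusters, 3 of low depth (median under 1/3 of that of all kept cells) and 1 of 12 protamine-led cells were no stages. Each well held 1 sorted cell, and doublets were not removed. Stage names are rebuilt from marker lists.

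UMIs were summed per mouse and stage (33 sums; 36 had been planned for) and fitted with edgeR 4.0.16 (quasi-likelihood, even-autosome library size with TMM factors, filterByExpr, the mouse as a block since each animal gave every stage, Benjamini-Hochberg adjustment over the 11640 genes tested, threshold 0.05). All 10 members passed the filter. Tested onset is the first stage called higher than stage 1 that stayed called up to the stage of the highest mean. CPM is UMIs per 1000000 even-autosome UMIs. The test was also run on simulated data, and the outcome is not given here. DESeq2 1.42.0 was an alternative. Cells for shares were thinned to 2000 UMIs. Genes named were the 10 members, their relatives, a list of other copies and, for each member, the genes most like it over stages. Members and lists were chosen with earlier results of these data known. The mouse is the replicate.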

Additional observations from a re-analysis of the deposited data

Results flagged for a closer look

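A small cluster with protamine genes in the lead (12 cells, with 4, 3 and 5 in mice 1, 2 and 3), spermatid-like, entered no stage and no comparison. In these cells 9 of the 10 genes stood above the limit that a count of 0 allows (3 UMIs, 32.2 CPM). Pooled over the mice, Pgk2 was at 987 CPM (92 UMIs), Rpl10l at 858 CPM, Rpl39l at 665 CPM, Slc25a31 at 654 CPM and Rbmxl2 at 332 CPM. Cetn1 was at 279 CPM, Gk2 at 268 CPM, Cstf2t at 225 CPM and Pdha2 at 204 CPM. Pgk2 was at 247 CPM in mouse 1, 1448 in mouse 2 and 1226 in mouse 3, above its stage 11 level in each. These sums come from few cells and were not tested, and Utp14b, with 3 UMIs, was at the limit.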

How the results depend on the processing

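The fitted change of each of the 10 genes between the earliest and latest stage kept its direction and its side of the threshold under all 15 alternatives. The number called higher than at stage 1 was 8 at stages 9, 10 and 11 under each alternative, and 7 to 9 at stage 8. At earlier stages it depended on the setting, and the cause was not tested. At stage 2 (1 in the reported fit) it was 0 in the fit without the mouse as a block and in the reads table, and 0 to 1 leaving out a mouse. At stage 3 (1) it was 0 without the block, in the reads table, with median-ratio size factors, with sums of at least 20 cells and without the gate-sorted library, and 0 to 1 leaving out a mouse. At stage 5 (3) it was 1 without the block, 0 in the reads table, 1 without the gate-sorted library, and 0 to 3 leaving out a mouse. At stage 6 (3) it was 0 to 3 leaving out a mouse. At stage 7 (5) it was 3 without the block, in the reads table and with median-ratio size factors, and 2 to 4 leaving out a mouse. Median-ratio size factors moved the median log2 change of all genes at stage 11 from -0.07 to -0.31. Onset stages moved beyond the spread between mice in 34 of 140 recomputed values and peak stages in 16 of 120, among them Pgk2, whose mean onset was 8.33 with sums of at least 20 cells (which drops stage 11 of mouse 2) and 6 at 25% of the highest level, and Rpl10l, with 1 at 25%. At 25% and 75% of the highest level, the loss stages of the relatives and the gaps to the onset moved in 30 of 40 values. Shares of cells with a UMI were all higher without thinning. Depth limits Pgk2 before stage 9 and Utp14b throughout.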

Other observations

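In the same 12 protamine-led cells, pooled over the mice, X-linked relatives were counted above their stage 11 levels. Rpl10 was at 751 CPM (70 UMIs, pooled) against 65.4 CPM on average at stage 11, Rpl39 at 440 CPM, Cstf2 at 268 CPM and Pgk1 at 182 CPM. Rpl10 was at 1025 CPM in mouse 1, 207 in mouse 2 and 882 in mouse 3. In mice 1, 2 and 3, Rpl39 was at 884, 124 and 319 CPM, Cstf2 at 106, 82.8 and 490 CPM and Pgk1 at 212, 0 and 270 CPM. The mice thus contributed unevenly, with 20 of the 25 Cstf2 UMIs from mouse 3 and 25 of the 41 Rpl39 UMIs from mouse 1. No UMI of Gyk was counted there, which allows up to 32.2 CPM by counting error alone. These values were not tested.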
